A study of Mus musculus with 3 samples.

Results

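The TNF superfamily genes were taken as every feature of the count matrix whose symbol begins with Tnfsf (ligands) or Tnfrsf (receptors), which gave 33 of 31053 features. Of these, 13 carried a ligand symbol and 20 a receptor symbol. The ligand symbols include Tnfsf13os, an antisense transcript, and Tnfsfm13, a read-through of Tnfsf12 and Tnfsf13.

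TNF family ligands are type II membrane proteins that assemble into trimers and act at the cell surface or after shedding. Their receptors carry cysteine-rich domains outside the cell. Some have a cytoplasmic death domain that can engage caspases, others bind TRAF adaptors and activate NF-kB, and a few lack a signalling tail and act as decoys. In the brain the family is best known for TNF produced by microglia, for T-cell costimulation, and for death receptors on injured cells.

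The libraries were made from brains of mice with the strain label C56BL6 and an age of 10 weeks, in a control group, an Ischemic Stroke (IS) group and a Hemorrhagic Stroke (HS) group, with tissue of 8 mice in each according to the methods. Ischemia was induced by occluding the middle cerebral artery with a suture followed by reperfusion, and hemorrhage by injecting collagenase IV into the striatum. There was 1 droplet library per condition, so animals were pooled, and the 3 libraries share 1 matrix in which a barcode suffix of 1, 2 or 3 tells them apart. No source used here pairs a suffix with a condition, so conditions were not compared, no test was run, and values are given for all libraries together and for each suffix.

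Of 35968 barcodes, 31982 had at least 1000 UMIs (unique molecular identifiers, each 1 captured transcript molecule) and at most 30% mitochondrial counts, with a median of 6147 UMIs. A cell was assigned to a class when it had UMIs of at least 3 of 6 markers of that class and at least 4 marker UMIs in sum. In this way 25659 barcodes (80.2%) passed 1 gate, 3474 passed none and 2849 passed 2 or more and were left out. The 12 classes with at least 100 cells were 9375 microglia-gated, 103 macrophage-gated, 284 neutrophil-gated, 2307 T-cell-gated, 294 NK-cell-gated, 915 endothelial-gated, 149 mural-gated, 299 astrocyte-gated, 391 oligodendrocyte precursor-gated, 9402 oligodendrocyte-gated, 1843 neuroblast-gated and 161 choroid plexus-gated cells. Only 5 cells passed the neuron gate, so neurons were not described. The libraries differed in their make-up. Of the endothelial-gated cells, 895 of 915 carried suffix 3, as did 135 of 149 mural-gated and 84 of 103 macrophage-gated cells, whereas 204 of 284 neutrophil-gated cells carried suffix 1. Pooled levels of the endothelial-gated, mural-gated and macrophage-gated classes therefore rest mainly on the library of suffix 3. Set against other classes, these pooled levels mix class with library, which a comparison inside suffix 3 would not. T-cell-gated cells numbered 835, 1453 and 19 for suffix 1, 2 and 3. Between 24 and 43 barcode sequences were shared by a pair of libraries. The macrophage-gated cells also held 5.76 UMIs of microglia markers per cell, against 27.9 in microglia-gated cells, and the part of this in their values was not tested.

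Levels are given as CPM, the summed UMIs of a gene scaled to a fixed total of UMIs for each class, and as the share of cells with a UMI. Intervals are exact 95% intervals, Clopper-Pearson for shares and Poisson for CPM, and cover counting error only. Oligodendrocyte-gated cells, with a median of 6126 UMIs, served as the background class for the immune and vascular members. Levels were compared between classes for 1 gene and not between genes.

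A member was called detected when at least 5% of the cells of a class had a UMI. By this rule 21 of the 33 members were detected, 7 ligands and 14 receptors, where 43% of all 31053 features were. Of the 21, 16 had their highest CPM in an immune class, against 20.2% of all detected features. In 8 of the 21, 2 ligands and 6 receptors, the highest class was at least 4 times the next, against 13.9% of all detected features. Of the 33 members, 12 reached the limit in microglia-gated cells, where 25% of all features did, 10 in endothelial-gated cells (27.5% of all features) and 9 in T-cell-gated cells (19.6%). In oligodendrocyte-gated cells 1 member, Tnfrsf12a, reached it, where 25.4% of all features did. Every member had at least 1 UMI in the matrix.

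**Figure D1:**
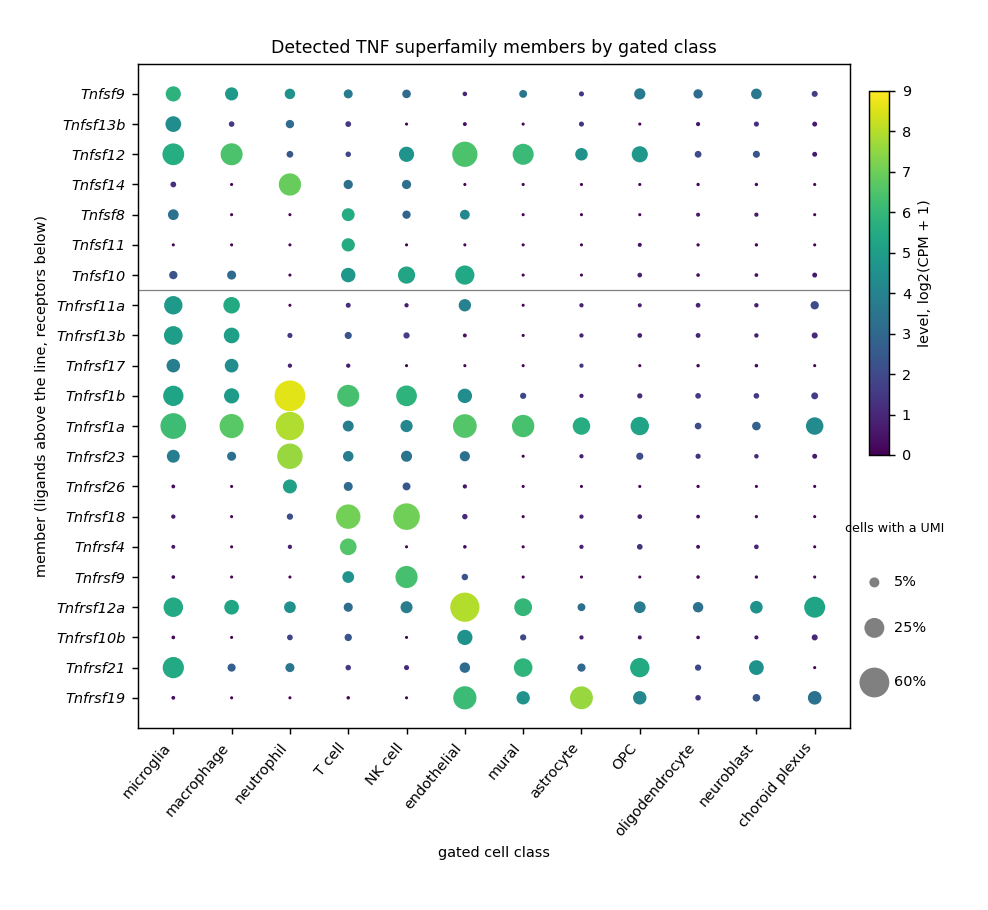
Each of the 21 detected members (rows) in the 12 gated classes (columns). Dot area follows the share of cells with a UMI and colour the level as log2(CPM + 1). Tnfrsf1b, Tnfrsf1a, Tnfrsf23 and Tnfsf14 stand out in neutrophil-gated cells, Tnfrsf4 and Tnfsf11 in T-cell-gated cells, and Tnfrsf12a in endothelial-gated cells.

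Among the ligands, Tnfsf14 (LIGHT, a costimulatory ligand of the herpesvirus entry mediator and the lymphotoxin beta receptor) was concentrated in neutrophil-gated cells. A UMI was present in 32.0% of them (95% interval 26.7 to 37.8) at a median depth of 3042 UMIs, and the level was 119 CPM. The next class, T-cell-gated cells, held 8.68 CPM, a ratio of 13.7, and 0.0425% of oligodendrocyte-gated cells had a UMI. With every cell thinned to 1000 UMIs the neutrophil share was 13.4% and the oligodendrocyte share 0.0106%. The share was 29.9% in the library of suffix 1 and 38.5% in that of suffix 2, and it was 37.5% without suffix 1. The neutrophil levels of Tnfsf14 were 132 CPM and 153 CPM in these libraries, with overlapping intervals. Both lay above the 119 CPM of all neutrophil-gated cells, which include 28 of suffix 3, too few to be given alone.

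Tnfsf14 lies on the minus strand of chromosome 17, at 57189492 to 57194177 in GRCm38. The 250 bases before its RefSeq transcription start, chr17:57194182-57194431 on the minus strand of GRCm38.p6, are shown because Tnfsf14 was the ligand most concentrated in neutrophil-gated cells. The capitals mark 1 match to the AP-1 letters TGACTCA, found as the reverse complement TGAGTCA, whose first base lies at -160 from the start.

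Tnfsf14: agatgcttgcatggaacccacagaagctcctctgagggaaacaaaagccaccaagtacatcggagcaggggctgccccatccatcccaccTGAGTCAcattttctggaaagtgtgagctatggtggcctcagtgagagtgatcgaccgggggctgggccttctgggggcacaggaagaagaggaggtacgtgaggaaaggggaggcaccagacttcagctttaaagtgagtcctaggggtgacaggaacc

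Of the members, 25 had a RefSeq promoter in the table used, with 29 start sites. On either strand the AP-1 letters were present in 5 of these 29 windows (17.2%) and in 4.46% of all 32851 windows of the same length. The RUNX letters TGTGGTT were present in 1 member window, that of Tnfrsf13c, and in 4.40% of all windows. The NF-kB letters GGANTTTCC were present in 0 member windows and in 1.06% of all windows. Other spellings of an NF-kB site were not searched, so the 0 covers these letters only. The AP-1 windows belonged to Tnfsf14, Tnfsf13, Tnfsf13b, Tnfrsf8 and Tnfrsf9. Of these, Tnfsf14 was highest in neutrophil-gated, Tnfsf13b in microglia-gated and Tnfrsf9 in NK-cell-gated cells. Tnfsf13 and Tnfrsf8 were under the 5% limit in every large class, so no class was read for them. Their highest shares were 0.971% of macrophage-gated cells for Tnfsf13 and 2.11% of neutrophil-gated cells for Tnfrsf8.

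Tnfsf11 (RANKL, the osteoclast differentiation factor, also made by activated T cells) and Tnfsf8 (CD30 ligand) had their highest levels in T-cell-gated cells. A Tnfsf11 UMI was present in 9.93% of T-cell-gated cells, at 44.2 CPM, where the next class, oligodendrocyte precursor-gated cells, held 0.379 CPM from 1 UMI. For Tnfsf8 the share was 9.32% at 45.2 CPM, with 16.9 CPM in endothelial-gated and 9.31 CPM in microglia-gated cells. Both shares differed between libraries beyond counting error. Tnfsf11 was found in 14.0% of T-cell-gated cells of suffix 1 and 7.64% of suffix 2, and Tnfsf8 in 15.0% and 6.19%. Tnfsf8 was also uneven among microglia-gated cells, with 4.29%, 8.69% and 1.20% for suffix 1, 2 and 3. Without suffix 1 the T-cell share of Tnfsf8 was 6.11%, and without suffix 2 it was 14.6%.

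Tnfsf10 (TRAIL, a ligand of death receptors) was shared by endothelial and lymphoid cells. Its level was 41.3 CPM in endothelial-gated cells (36.7 to 46.3), 37.8 CPM in NK-cell-gated cells (29.5 to 47.7) and 26.3 CPM in T-cell-gated cells (23.6 to 29.3). The endothelial and NK intervals overlapped, so these classes could not be ordered. The share of cells with a UMI was 23.0% of endothelial-gated, 18.0% of NK-cell-gated and 12.1% of T-cell-gated cells, against 0.128% of oligodendrocyte-gated cells.

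Tnfsf12 (TWEAK) was the most widely distributed ligand, at the limit in 7 classes. It reached 85.9 CPM in macrophage-gated (62.9 to 115) and 85.6 CPM in endothelial-gated cells (79.0 to 92.7), followed by 67.2 CPM in mural-gated and 46.4 CPM in microglia-gated cells. NK-cell-gated cells held a UMI in 13.6%, whereas 0.734% of CD8 T cells did. The microglia share was 29.0%, 31.7% and 28.6% in the 3 libraries. On chromosome 11 the Tnfsf12 model, at 69686250 to 69695849, lies inside that of the Tnfsfm13 read-through and 0.465 kb from Tnfsf13, so the split of reads among these features is uncertain. Tnfsf13 (APRIL) itself had 15 UMIs in all kept barcodes.

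Tnfsf9 (4-1BB ligand) and Tnfsf13b (BAFF, a survival factor for B cells) had their highest levels in microglia-gated cells. Tnfsf9 stood at 54.6 CPM there (53.0 to 56.2), with a UMI in 13.6% of cells, and at 28.0 CPM in macrophage-gated cells. In oligodendrocyte-gated cells Tnfsf9 was present in 4.16%, close to the limit. By library, the microglia level of Tnfsf9 was 40.6 CPM, 69.1 CPM and 25.8 CPM for suffix 1, 2 and 3, highest for suffix 2 and lowest for suffix 3. For Tnfsf13b the microglia share was 14.7% at 19.8 CPM, and microglia was the 1 class at the limit. The next level of Tnfsf13b was 7.89 CPM in neutrophil-gated cells.

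Among the receptors, both TNF receptors were highest in neutrophil-gated cells. Tnfrsf1b (TNFR2, which lacks a death domain) had a UMI in 64.1% of them (58.2 to 69.7) and a level of 386 CPM (351 to 424). The next classes were T-cell-gated cells with 79.6 CPM, NK-cell-gated cells with 55.9 CPM and microglia-gated cells with 36.9 CPM. Its share in oligodendrocyte-gated cells was 1.02%. At 1000 UMIs per cell the Tnfrsf1b shares were 31.7% in neutrophil-gated, 7.98% in T-cell-gated and 0.117% in oligodendrocyte-gated cells. The neutrophil level was 453 CPM in the library of suffix 1 and 432 CPM in that of suffix 2. The 28 neutrophil-gated cells of suffix 3 were too few to be given alone, and the level of all neutrophil-gated cells lay below both. Outside the immune classes its highest level was 20.3 CPM, in endothelial-gated cells.

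Tnfrsf1a (TNFR1, the death-domain receptor of TNF) was the broader receptor. It reached the limit in 10 classes, with 241 CPM in neutrophil-gated, 101 CPM in macrophage-gated, 95.8 CPM in endothelial-gated, 82.1 CPM in mural-gated, 72.8 CPM in microglia-gated and 48.0 CPM in astrocyte-gated cells. The macrophage, endothelial and mural intervals overlapped. Only oligodendrocyte-gated cells (1.70%) and neuroblast-gated cells were under the limit. In microglia-gated cells Tnfrsf1a stood at 67.5 CPM, 64.2 CPM and 123 CPM for suffix 1, 2 and 3. Tnfrsf1b followed the same order of libraries in these cells at 36.4 CPM, 29.9 CPM and 68.2 CPM. The library of suffix 3 was highest for both. That library held 84 of 103 macrophage-gated, 895 of 915 endothelial-gated and 135 of 149 mural-gated cells, but 1673 of 9375 microglia-gated cells. The pooled order of these classes therefore mixes class with library. In suffix 3 alone the microglia level of Tnfrsf1a, 123 CPM, lay above the pooled 95.8 CPM and 82.1 CPM of endothelial-gated and mural-gated cells. It also lay above the pooled 101 CPM of macrophage-gated cells, whose interval in that library was not compared.

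Tnfrsf23 and Tnfrsf26, mouse receptors of a cluster on chromosome 7, were also concentrated in neutrophil-gated cells. Tnfrsf23, a decoy receptor for TRAIL, had a UMI in 42.6% of neutrophil-gated cells, at 193 CPM, against 13.2 CPM in microglia-gated cells, a ratio of 14.6. The thinned Tnfrsf23 shares were 18.0% and 1.54%. Tnfrsf26 was present in 11.3% at 33.3 CPM, 4.31 times the T-cell level. Tnfrsf22, which lies between them at 143634806 to 143649661, reached 2.62% of endothelial-gated cells at most. The gaps are 6.08 kb between Tnfrsf26 and Tnfrsf22 and 16.1 kb between Tnfrsf22 and Tnfrsf23. These genes are close paralogs, so reads that fit more than 1 of them may be missing or misplaced. Without suffix 1 too few neutrophil-gated cells were left for the class to enter the comparison, and the neutrophil shares of Tnfrsf23 and Tnfrsf26 were 33.8% and 7.50%.

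T-cell costimulatory receptors were confined to the lymphoid classes at the 5% limit. Tnfrsf4 (OX40) had a UMI in 16.8% of T-cell-gated cells at 95.5 CPM, where the next class held 1.52 CPM. Tnfrsf18 (GITR) had a UMI in 39.1% of T-cell-gated and 46.9% of NK-cell-gated cells, at 134 CPM (128 to 141) and 132 CPM (116 to 149), and the intervals overlapped. Tnfrsf9 (4-1BB) was higher in NK-cell-gated cells, at 81.0 CPM with a UMI in 31.6%, than in T-cell-gated cells, at 23.7 CPM with 7.46%. The background shares in oligodendrocyte-gated cells were 0.202% for Tnfrsf4, 0.170% for Tnfrsf18 and 0.117% for Tnfrsf9. Thinning to 1000 UMIs left 5.85%, 10.9% and 1.69% of T-cell-gated cells with a UMI of Tnfrsf4, Tnfrsf18 and Tnfrsf9.

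Tnfrsf4 and Tnfrsf18 are neighbours on the plus strand of chromosome 4, at 156013843 to 156016612 and 156026164 to 156028895, with a gap of 9.55 kb and no protein-coding gene between them. Their levels did not follow each other in NK-cell-gated cells, where Tnfrsf18 was present in 46.9% and Tnfrsf4 in 0 of 294 cells. A count of 0 there allows up to 1.02% with a UMI when 3 counts are taken as the limit, which is a little narrower than the exact interval. The 250 bases before each RefSeq start, chr4:156013445-156013694 and chr4:156026072-156026321, are shown because these neighbours share T-cell-gated cells and part in NK-cell-gated cells. Neither stretch holds any of the 3 motifs searched, so no base is in capitals. The RefSeq starts differ from the gene positions given above, which are from GENCODE. The Tnfrsf18 stretch therefore runs into its GENCODE gene, and the Tnfrsf4 stretch ends before its own.

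Tnfrsf4: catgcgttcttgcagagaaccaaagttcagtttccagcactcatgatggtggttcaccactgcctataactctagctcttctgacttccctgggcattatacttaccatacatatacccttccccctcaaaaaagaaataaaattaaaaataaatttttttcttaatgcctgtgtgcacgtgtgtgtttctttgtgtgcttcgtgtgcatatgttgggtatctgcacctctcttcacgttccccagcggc
Tnfrsf18: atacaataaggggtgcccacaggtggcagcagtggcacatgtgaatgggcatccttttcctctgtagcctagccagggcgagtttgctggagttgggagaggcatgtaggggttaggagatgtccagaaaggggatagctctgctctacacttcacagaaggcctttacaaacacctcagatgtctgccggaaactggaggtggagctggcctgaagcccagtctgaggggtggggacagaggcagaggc

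The T-cell-gated cells were divided by their UMIs into 1362 CD8 T cells (Cd8a or Cd8b1 without Cd4), 218 CD4 T cells (Cd4 without Cd8a, Cd8b1 and Foxp3), 14 Foxp3-positive cells, 9 with both Cd4 and Cd8 UMIs, and 704 with none of these transcripts. Tnfrsf4 was present in 52.3% of CD4 T cells (45.4 to 59.1) and 5.58% of CD8 T cells (4.42 to 6.93), at 299 CPM and 20.5 CPM. The CD4 and CD8 subsets had similar median depths, 4770.5 and 5040.5 UMIs. In the Foxp3-positive cells 85.7% had a Tnfrsf4 UMI (57.2 to 98.2). The difference between CD4 and CD8 T cells held in both libraries. The shares were 70.1% against 5.62% for suffix 1 and 35.5% against 5.59% for suffix 2. Of the 704 cells with none of the subset transcripts, 181 (25.7%) had a Tnfrsf4 UMI. These were more cells than the 114 of the CD4 subset, and their subset was not tested.

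Tnfrsf18 was less divided, with 51.8% of CD4 and 34.2% of CD8 T cells. Tnfrsf25 (DR3, a death-domain receptor of T cells) missed the 5% limit with 4.77% of all T-cell-gated cells. It was present in 11.5% of CD4 T cells, 0.514% of CD8 T cells and 42.9% of Foxp3-positive cells (17.7 to 71.1). Of the 704 cells with none of the subset transcripts, 72 (10.2%) had a Tnfrsf25 UMI, against 25 CD4 T cells. Tnfrsf9 was present in 10.1% of CD4 and 6.17% of CD8 T cells, whose intervals overlapped, and in 57.1% of Foxp3-positive cells (28.9 to 82.3).

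Between the CD4 and CD8 subsets, the ligands Tnfsf8 and Tnfsf11 were likewise more frequent in CD4 T cells. Tnfsf8 was present in 24.3% of CD4 T cells (18.8 to 30.6) and 4.85% of CD8 T cells (3.77 to 6.12), and Tnfsf11 in 24.8% (19.2 to 31.1) and 4.77% (3.70 to 6.04). In the library of suffix 1 the CD4 shares were 36.4% and 35.5%, and in that of suffix 2 they were 13.1% and 15.0%. Of the 704 cells without Cd4, Cd8a, Cd8b1 and Foxp3 UMIs, 91 (12.9%) had a Tnfsf8 UMI and 105 (14.9%) a Tnfsf11 UMI. These were more cells than the 53 and 54 of the CD4 subset, and their subset was not tested. Tnfsf10 did not separate the subsets, with 11.5% of CD4 and 14.7% of CD8 T cells.

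**Figure D2:**
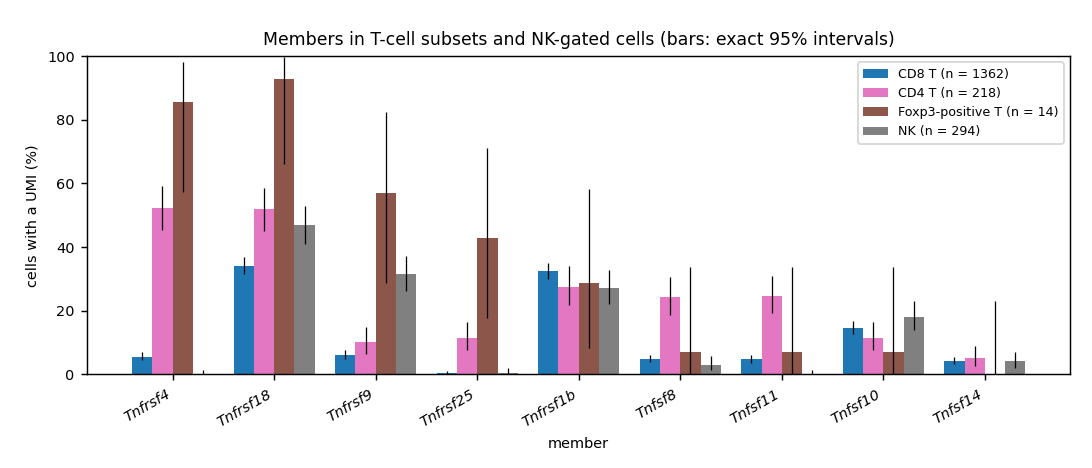
Share of cells with a UMI (vertical axis, percent) of 9 members in CD8 T, CD4 T, Foxp3-positive T and NK-gated cells, with exact 95% intervals. The CD4 bars exceed the CD8 bars for Tnfrsf4, Tnfrsf25, Tnfsf8 and Tnfsf11, and Tnfrsf4 has no UMI in the 294 NK-gated cells. T-cell-gated cells without Cd4, Cd8a, Cd8b1 and Foxp3 UMIs, and those with both Cd4 and Cd8 UMIs, are not drawn.

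Receptors of the B-cell survival factors were found in microglia-gated cells. Tnfrsf13b (TACI) was present in 21.7% of microglia-gated cells (20.9 to 22.6) at 30.3 CPM, and at 31.7 CPM in macrophage-gated cells (18.5 to 50.8). Tnfrsf17 (BCMA) was present in 10.4% at 13.5 CPM, and at 20.5 CPM in macrophage-gated cells (10.3 to 36.7). Their shares in oligodendrocyte-gated cells were 0.585% and 0.0745%. At 1000 UMIs per cell the microglia shares were 3.54% and 1.81%. The 6 B-cell markers together held 0.136 UMIs per microglia-gated cell. Of these markers, 1 was at 0 and Cd79b had a UMI in 11.6% of microglia-gated cells, and the part of B-cell RNA in the values was not tested. Tnfrsf13c (BAFF receptor), the third receptor of this group, stayed under the limit in every large class, with 3.06% of NK-cell-gated cells at most, and was found in 43.3% of the 30 B-cell-gated cells (25.5 to 62.6).

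Tnfrsf13b and Tnfrsf17 differed among libraries within microglia-gated cells. The Tnfrsf13b share was 18.5%, 20.7% and 30.3% for suffix 1, 2 and 3, at 23.3 CPM, 26.5 CPM and 63.4 CPM. For Tnfrsf17 the levels were 11.6 CPM, 11.8 CPM and 25.3 CPM. Suffix 3 was highest for both, whereas it was lowest for Tnfsf8 and Tnfsf9. Since 84 of 103 macrophage-gated cells carried suffix 3, the pooled order of macrophage-gated and microglia-gated cells mixes class with library. In suffix 3 alone the microglia level of Tnfrsf13b, 63.4 CPM, lay above the interval given above for all macrophage-gated cells. The microglia level of Tnfrsf17 in that library, 25.3 CPM, lay inside the macrophage interval. The libraries also held unlike numbers of microglia-gated cells with a UMI of Cst7, a split described below. These were 1700, 3488 and 57 for suffix 1, 2 and 3. Among cells without a Cst7 UMI, suffix 3 was no longer lowest for Tnfsf9 or highest for Tnfrsf17. By level it stayed lowest for Tnfsf8 and highest for Tnfrsf13b. The part of this make-up in the orders was not tested. Whether the libraries differ by condition or by preparation cannot be told apart.

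Tnfrsf11a (RANK, the receptor of RANKL) was present in 21.0% of microglia-gated cells at 27.7 CPM, with 42.9 CPM in macrophage-gated (27.2 to 64.4) and 14.7 CPM in endothelial-gated cells. Its microglia share was 21.1%, 21.1% and 20.4% for suffix 1, 2 and 3, at 27.8 CPM, 26.0 CPM and 35.1 CPM, so that suffix 3 was highest by level and not by share, and no order was read from the shares. Tnfrsf21 (DR6, a death-domain receptor studied in axon and oligodendrocyte biology) was present in 28.9% of microglia-gated, 23.5% of oligodendrocyte precursor-gated and 12.8% of neuroblast-gated cells but in 1.38% of oligodendrocyte-gated cells. Its levels were 56.7 CPM in mural-gated (40.2 to 77.9), 42.9 CPM in oligodendrocyte precursor-gated (35.3 to 51.5) and 41.8 CPM in microglia-gated cells (40.4 to 43.2). The mural interval overlapped the others, so the highest class was not resolved. At 1000 UMIs per cell, 3.58% of precursor-gated and 0.191% of oligodendrocyte-gated cells had a Tnfrsf21 UMI.

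**Figure D3:**
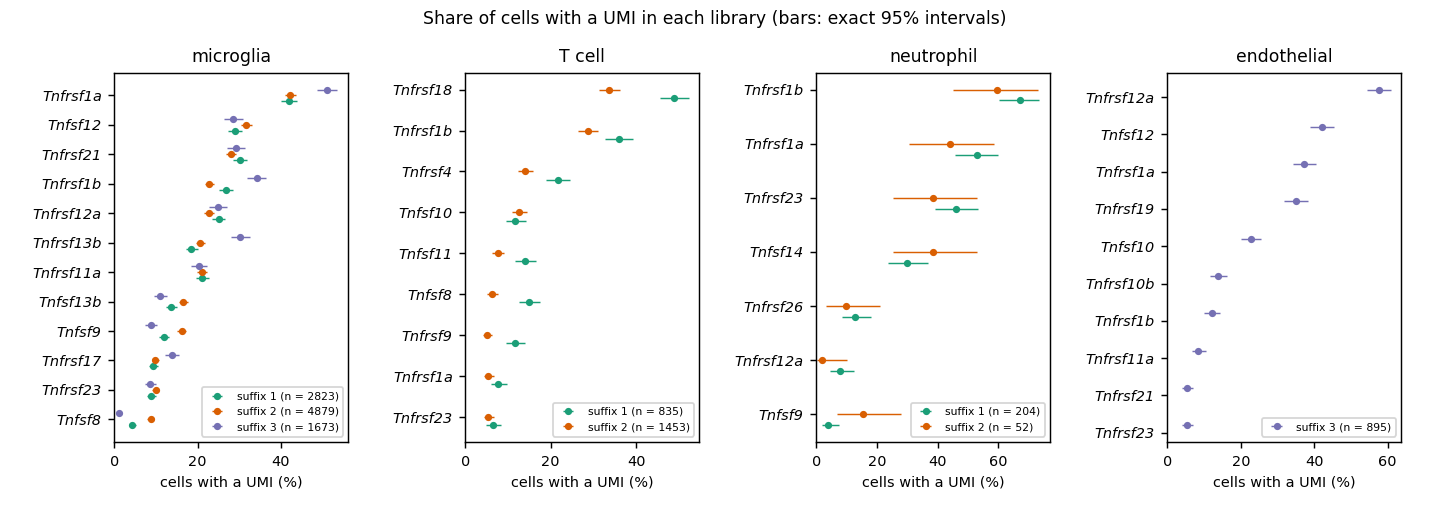
Share of cells with a UMI (horizontal axis, percent) in each library for the members at the 5% limit in microglia, T cells, neutrophils and endothelial cells, with exact 95% intervals. Libraries with under 50 cells of a class are not drawn, which leaves suffix 3 alone for endothelial cells. In microglia, suffix 3 is highest for Tnfrsf1a and Tnfrsf13b, at 51.2% and 30.3%, and lowest for Tnfsf8, at 1.20%.

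Endothelial-gated cells carried Tnfrsf12a (Fn14, the receptor of TWEAK) and Tnfrsf10b (DR5, the mouse death receptor of TRAIL) above all other classes. Tnfrsf12a was present in 57.4% of them (54.1 to 60.6) at 247 CPM (236 to 259), where mural-gated cells held 61.2 CPM (43.9 to 83.0), a ratio of 4.04. It was at the limit in 10 classes, among them 28.0% of choroid plexus-gated and 23.8% of microglia-gated cells, and 5.53% of oligodendrocyte-gated cells had a UMI. Tnfrsf10b was present in 13.7% of endothelial-gated cells at 22.3 CPM, 5.18 times the T-cell level, and no other class reached the limit. The thinned endothelial shares were 20.7% and 2.30%. Since 895 of the 915 endothelial-gated cells came from the library of suffix 3, the endothelial levels rest mainly on that library. The pooled ratios to other classes therefore mix class with library. In the 20 endothelial-gated cells of the other libraries, 45.0% had a Tnfrsf12a UMI and 10.0% a Tnfrsf10b UMI.

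Tnfrsf19 (TROY, a receptor of neural progenitors and developing tissues) was the 1 detected member with its highest level in a neural class. Astrocyte-gated cells held 195 CPM (172 to 221) with a UMI in 33.8%, and endothelial-gated cells 69.0 CPM (63.0 to 75.4) with 35.0%. The shares were alike while the levels were not, and the median depths were 3006 and 5484 UMIs. At 1000 UMIs per cell the Tnfrsf19 share was 15.1% of astrocyte-gated and 7.43% of endothelial-gated cells. In astrocyte-gated cells the share was 27.1%, 28.9% and 39.9% for suffix 1, 2 and 3, with levels of 158 CPM, 240 CPM and 185 CPM. The order of shares was not the order of levels, and no order of the libraries was read from them.

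Ligands and receptors known to pair were set side by side by class. For TWEAK and its receptor, Tnfsf12 and Tnfrsf12a were both at the limit in endothelial-gated, mural-gated, microglia-gated, macrophage-gated, oligodendrocyte precursor-gated and NK-cell-gated cells. For RANKL, the ligand Tnfsf11 was at the limit in T-cell-gated cells alone and the receptor Tnfrsf11a in microglia-gated, macrophage-gated and endothelial-gated cells, and the decoy receptor Tnfrsf11b (osteoprotegerin) reached 3.07% of oligodendrocyte precursor-gated cells at most. For 4-1BB, Tnfsf9 was highest in microglia-gated cells and Tnfrsf9 in NK-cell-gated cells. For TRAIL, the receptor Tnfrsf10b was highest in endothelial-gated cells, while the decoy Tnfrsf23 was highest in neutrophil-gated cells. The levels of the ligand Tnfsf10 in endothelial-gated and NK-cell-gated cells could not be ordered. For BAFF, Tnfsf13b, Tnfrsf13b and Tnfrsf17 were all at the limit in microglia-gated cells. The ligands of OX40 and GITR, Tnfsf4 and Tnfsf18, stayed under the limit in every large class, with a highest share of 2.04% of NK-cell-gated cells and 1.94% of macrophage-gated cells. Transcripts of a ligand and a receptor in a pair of classes do not show that they met.

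**Figure D4:**
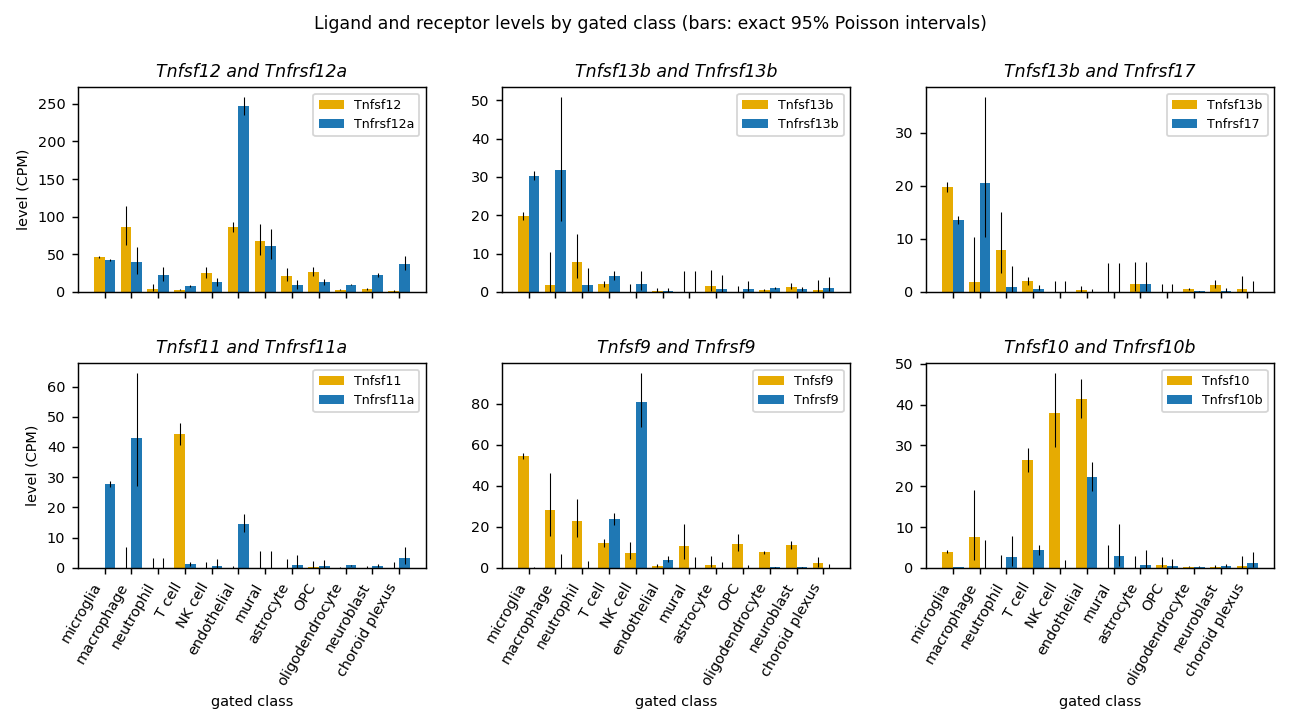
Levels (CPM, with exact 95% Poisson intervals) of 6 ligand and receptor pairs in the 12 gated classes. Heights may be compared between classes for 1 gene but not between genes. Tnfsf11 has its bar in T cells at 44.2 CPM and Tnfrsf11a in macrophages, microglia and endothelial cells.

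The 12 members under the limit in every large class were Tnfsf4, Tnfsf13, Tnfsf13os, Tnfsf15, Tnfsf18, Tnfsfm13, Tnfrsf8, Tnfrsf11b, Tnfrsf13c, Tnfrsf14, Tnfrsf22 and Tnfrsf25. Their highest shares ran from 0.680% for Tnfrsf14 to 4.77% for Tnfrsf25. The detected members with the smallest highest shares were Tnfsf8 and Tnfsf11, at 9.32% and 9.93%, so no member lay just above the limit. Tnfsf15, at 0.875% of microglia-gated cells, and Tnfrsf8 (CD30), at 2.11% of neutrophil-gated cells, had levels of 2.22 CPM and 5.26 CPM.

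Microglia-gated cells were further divided by a UMI of Cst7 (cystatin F, a marker of activated microglia), a split chosen after values had been seen. The split moved with library and depth. Of the 5245 cells with a Cst7 UMI, 57 carried suffix 3, and in suffix 1 the median depth was 11511 UMIs with and 5146 UMIs without Cst7. Within libraries, Tnfsf9 stood at 47.2 CPM with and 19.0 CPM without Cst7 for suffix 1, at 77.1 CPM and 21.6 CPM for suffix 2, and at 59.5 CPM and 24.3 CPM for suffix 3. At 1000 UMIs per cell, the Tnfsf9 shares for suffix 2 were 4.73% with and 1.65% without Cst7. Tnfsf9 was therefore higher in cells with Cst7 in every library, with intervals that did not overlap. With the libraries together, the 4146 Tnfsf9 UMIs of cells with Cst7 came from 970 of 5245 cells. The Poisson intervals take no account of this clustering and are too narrow. Tnfsf8 differed in this direction for suffix 2, with 14.6 CPM (13.4 to 15.8) against 2.64 CPM (1.57 to 4.18), while its intervals overlapped for suffix 1, with 6.35 CPM and 5.10 CPM.

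Tnfrsf13b and Tnfrsf17 went the other way on the CPM scale in the libraries of suffix 1 and 2. Tnfrsf13b stood at 19.2 CPM with and 37.1 CPM without Cst7 for suffix 1, and at 24.2 CPM and 40.4 CPM for suffix 2. Tnfrsf17 stood at 9.75 CPM with and 17.7 CPM without Cst7 for suffix 1, and at 8.58 CPM and 31.4 CPM for suffix 2. For suffix 3 the intervals overlapped for both genes, with Tnfrsf17 at 19.8 CPM (9.06 to 37.6) with and 25.6 CPM without Cst7. Tnfrsf1b was lower with Cst7 too. It stood at 32.9 CPM against 48.1 CPM for suffix 1, and at 27.5 CPM against 44.0 CPM for suffix 2. Tnfrsf1a stood at 63.8 CPM against 79.6 CPM, and at 61.2 CPM against 82.7 CPM. The intervals of both genes were apart in these libraries and overlapped for suffix 3. With the libraries together, Tnfrsf12a, Tnfrsf21 and Tnfrsf23 were also lower with Cst7. Suffix 3 gave 1616 of the 4130 cells without Cst7 but 57 of the 5245 with it. For these 3 genes the pooled difference therefore cannot be told apart from the make-up of libraries. The direction was not limited to receptors, since the ligand Tnfsf13b was lower for suffix 1, at 16.1 CPM against 24.2 CPM. Among the receptors, the intervals of Tnfrsf11a overlapped for suffix 1 and 2. The unthinned Tnfrsf13b shares for suffix 1, 19.4% with and 17.2% without, had the opposite order, and the thinned ones were 2.24% and 3.74%. The part of depth in these differences was not tested. The share of all features with a lower level in cells with Cst7 was not counted, so the direction is not read as particular to the members.

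**Figure D5:**
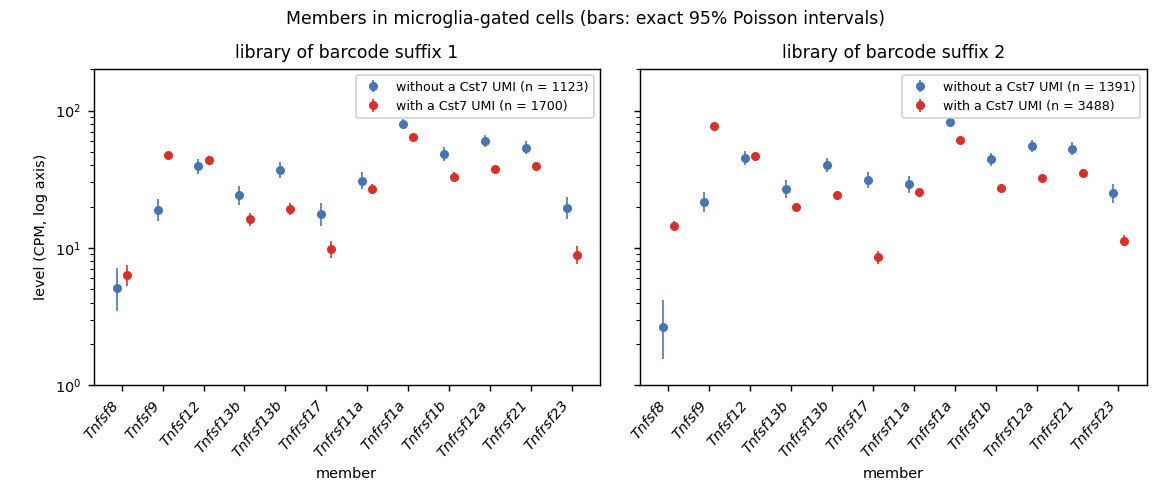
Levels (CPM on a log axis, with exact 95% Poisson intervals) of 12 members in microglia-gated cells with and without a Cst7 UMI, in the libraries of suffix 1 and 2. Tnfsf9 is higher with Cst7 in both panels, at 47.2 against 19.0 CPM and 77.1 against 21.6 CPM. Tnfrsf13b, Tnfrsf17, Tnfrsf1a and Tnfrsf1b are lower with Cst7 in both panels.

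Other genes of the pathway were taken from 4 lists, whose counts are to be read against 43% of all features detected and 20.2% of detected features highest in an immune class. Of 7 ligands under other symbols, 4 were detected. Tnf had a UMI in 82.2% of microglia-gated cells, at 1613 CPM, and in 12.3% of oligodendrocyte-gated cells, at 34.3 CPM. Ltb (lymphotoxin beta) was present in 89.7% of T-cell-gated cells, at 698 CPM, Fasl at 67.2 CPM in T-cell-gated cells and Cd40lg at 26.4 CPM in the same class. Of 8 receptors under other symbols, 5 were detected, among them Fas, with 196 CPM in endothelial-gated cells, and Cd27, with 81.2 CPM in T-cell-gated cells. All 13 signal transducers were detected, and 8 of them were highest in an immune class. Traf1, an adaptor of receptors without a death domain, was highest in T-cell-gated cells at 282 CPM, and Birc3, an inhibitor of apoptosis, in neutrophil-gated cells at 224 CPM. All 7 NF-kB members and targets were detected, and 6 were highest in an immune class, with Nfkbia, the inhibitor of NF-kB, at 8267 CPM in neutrophil-gated cells.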

How the data were processed

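Droplet libraries (10x 3′ kit) of dissociated mouse brain were read from 1 matrix. The deposited values are whole-number UMI counts per gene and cell, which the authors made with Cell Ranger 3.1.0 and STAR on mm10, down-sampling reads across libraries, so that depths are no longer as sequenced. Total UMIs were 69270514 to 105957232 per library. Barcodes with under 1000 UMIs (2862) or over 30% mitochondrial counts (1124) were left out. No cells were clustered. Classes were gated by 6 raw marker genes each, none a member. Members and lists were chosen with earlier results of these data known. Genes described were all members by symbol and the listed pathway genes. Doublets were handled by leaving out barcodes that passed 2 or more gates; Scrublet (scanpy 1.11.5) calls, 4.89% of kept barcodes, were left out only as an alternative. Levels are summed UMIs scaled to CPM, with exact intervals from SciPy 1.17.1. With 1 library per condition, and suffixes that no source pairs with conditions, no test was made. For shares compared at unequal depth, each cell was also thinned to 1000 UMIs. Positions are from GENCODE for GRCm38, in which 99.6% of gene identifiers were found, and promoter sequences from RefSeq (GRCm38.p6). Scripts were tested on simulated data. Alternatives were other limits on UMIs, genes, mitochondrial counts and markers, and leaving out called doublets. Others were keeping barcodes that passed 2 or more gates, thinning, and leaving out each library.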

Additional observations from a re-analysis of the deposited data

Results flagged for a closer look

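The 3474 barcodes that passed no gate, with a median of 2540 UMIs, entered none of the class comparisons, and 8 members were present in at least 5% of them. A UMI was found in 15.4% for Tnfrsf1a, 13.2% for Tnfrsf1b, 12.8% for Tnfrsf12a, 12.8% for Tnfsf12, 8.06% for Tnfrsf21, 7.57% for Tnfsf9, 6.42% for Tnfrsf11a and 5.12% for Tnfrsf13b. At least 1 microglia marker had a UMI in 59.5% of these barcodes, at least 1 oligodendrocyte marker in 41.5% and at least 1 T-cell marker in 12.1%. Microglia markers were also found in other classes, with a UMI of Sall1 in 24.3% of neuroblast-gated cells. All 8 members also reached the limit in microglia-gated cells. Which cells these barcodes hold was not tested.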

How the results depend on the processing

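Thinning every barcode to 1000 UMIs left 11 members detected (23.6% of all features), 5 at least 4 times the next class (15.8% of detected features) and 8 highest in an immune class (24.9%), and the share of each of the 21 members fell, as fewer UMIs per cell must give. Asking for 2 times the next class in place of 4 gave 13 members (28.6%). A detection limit of 2% gave 29 members (48.7% of all features) and one of 10% gave 19 (36.5%). Leaving out the library of suffix 1, 2 or 3 gave 19 to 22 detected (40.8% to 41.9% of all features), 8 to 10 concentrated (14.1% to 15.1%) and 12 to 18 highest in an immune class (14.0% to 22.5%). Without suffix 1, 8 members were again concentrated, but 3 of them were among the 8 with all libraries, since the neutrophil-gated, macrophage-gated and other small classes then held under 100 cells, and 10 of the 21 members had another highest class, among them Tnfrsf1a, Tnfrsf1b, Tnfrsf23 and Tnfsf14. The macrophage-gated class, with 9, 10 and 84 cells for suffix 1, 2 and 3, fell under 100 cells when any library was left out. The members highest in it (Tnfrsf11a, Tnfrsf13b, Tnfrsf17 and Tnfsf12) then had to move, and they moved to microglia-gated or endothelial-gated cells. With at least 2000 UMIs, 11 classes entered the comparison and the same members moved. These moves follow from the class limit and say nothing about the levels. Other moves came with all 12 classes kept. Tnfrsf13b moved to microglia-gated cells with limits of 2 standard deviations on UMIs and genes, with 4 of 6 markers, or with multi-gate barcodes kept. The limits of 2 standard deviations also moved Tnfsf12 to endothelial-gated cells. Thinning moved Tnfrsf17 to microglia-gated and Tnfrsf18 to NK-cell-gated cells. Asking for 4 of 6 markers moved Tnfsf10 to NK-cell-gated cells. With at least 2 of 6 markers, 11 classes entered the comparison and 6 of the 21 members had another highest class. Among them Tnfsf10 and Tnfrsf18 moved to NK-cell-gated cells, and the others were the members highest in macrophage-gated cells. Without suffix 3 the endothelial-gated and mural-gated classes also fell under 100 cells, and 8 of the 21 members had another highest class. No paired analysis was possible because the labels carry no replicate numbers and no comparison of conditions was tested. Depth limits members with few UMIs, for which a share under the limit does not show absence.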

Other observations

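In classes with under 100 cells, which the comparisons left out, 10 of 23 fibroblast-gated cells had a UMI of Tnfrsf1a (43.5%, 23.2 to 65.5), 11 of 23 one of Tnfrsf19 and 11 of 23 one of Tnfsf12. Tnfrsf12a was present in 11 of 24 ependymal-gated cells (45.8%, 25.6 to 67.2). Tnfrsf13b, found in microglia-gated cells, was present in 6 of 30 B-cell-gated cells (20.0%, 7.71 to 38.6).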
